A study of Mus musculus with 27 samples.

Results

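The response of microglia to PolyI:C was compared between wild-type mice and mice without a working cannabinoid receptor CB2, as 1 interaction contrast per gene: the change under PolyI:C in CB2-/- cells minus the change under PolyI:C in wild-type cells. It rests on 12 of the 27 RNA libraries of the study, and 14668 of 23995 genes were measured well enough to be tested. All cells were primary microglia from the cortices of neonatal mice, shaken off mixed glial cultures and re-seeded. The wild type was C57BL/6J and the CB2-/- strain B6.Cg-Cnr2tm1Zim, in which Cnr2, the gene for CB2, is disrupted in every cell of the animal. The 4 groups of 3 libraries were unstimulated wild type (library numbers 3012 to 3014), wild type under PolyI:C (3021 to 3023), unstimulated CB2-/- (2048 to 2050) and CB2-/- under PolyI:C (2057 to 2059), with stimulation for 16 h. The 16 h is the time in the design text, and the treatment protocol also names a shorter time. The question the study put was what loss of CB2 does to microglia that are stimulated through Toll-like receptors 3, 4 and 9. The labels do not say whether the libraries of a group came from separate animals or cultures, so the p-values measure the spread between these libraries, which may be technical.

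PolyI:C is a synthetic double-stranded RNA. Cells sense such RNA in endosomes through Toll-like receptor 3 (Tlr3) with its adaptor TRIF (Ticam1), and in the cytosol through RIG-I (Ddx58) and MDA5 (Ifih1). These routes activate IRF3, IRF7 and NF-kB and lead to type I interferon, which acts back on the cells through STAT and IRF factors to switch on interferon-stimulated genes, and to inflammatory cytokines and chemokines. CB2 is a G protein-coupled receptor for endocannabinoids that is found mainly on immune cells, microglia among them.

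Genotype and library number coincided for all stimulated libraries. Every stimulated wild-type library carries a number from 3012 to 3023 and every CB2-/- library a number from 2048 to 2059, so genotype and number series cannot be told apart in this contrast, and the labels do not assign the 2 described library protocols to libraries. Each response was measured within its own number series. A second set of unstimulated wild-type libraries, numbered 2186 to 2188, differed from the first in 928 genes that were higher (6.33% of those tested) and 830 that were lower (5.66%); where that set bears on a result its values are given. In the 12 libraries the summed normalised count was 6.34e+06 to 1.42e+07 and 15692 to 19986 genes were above 0; the smallest recurring step in the values puts depth at roughly 3.56 to 17.8 M reads. A pair of libraries stood apart: CB2-/- PolyI:C replicate 2 had 50.8% of its summed count in the gene models Gm19220, Gm26822 and Grip2, and wild-type PolyI:C replicate 1 was the shallowest and had the lowest astrocyte and fibroblast marker levels. Without both, 1442 genes were called higher and 2024 lower in the difference, against 1591 and 2045 with them. The share in Gm19220, Gm26822 and Grip2 went with the number series. It was 0.0741 to 50.8% in libraries 2048 to 2188 and at most 0.0045% in libraries 3012 to 3023. Unstimulated CB2-/- replicate 3 had 20.3%, and wild-type libraries 2186 to 2188 had 6.07, 31.1 and 21.4%. The part of this share in the differences was not tested.

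Cnr2 itself read 178, 230.0 and 233 normalised counts in unstimulated wild type and 9.57, 7.32 and 16.2 after PolyI:C. In CB2-/- cells Cnr2 read 317, 411 and 454 unstimulated and 329, 412 and 368 after PolyI:C. Transcript of the gene was thus counted in all CB2-/- libraries, and these totals per gene do not show whether reads fell in the deleted stretch, so they neither check nor contradict the labels. Wild-type cells lost most of the transcript under PolyI:C (-4.22 on the log2 scale) and CB2-/- cells showed no such loss (-0.08), a difference of 4.13 ± 0.77 (SE; adjusted p = 0.000246).

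Under PolyI:C far more genes changed in wild-type than in CB2-/- cells. In wild type 41.1% of the tested genes passed the test and in CB2-/- 8.55%. In wild type 3108 genes rose (21.2% of those tested) and 2924 fell (19.9%); in CB2-/- 750 rose (5.11%) and 504 fell (3.44%), or 654 and 784 after quantile scaling of the libraries. The difference itself passed the test for 3636 genes (24.8%): the response was more positive in CB2-/- for 1591 (10.8%) and more negative for 2045 (13.9%), by limma with Benjamini-Hochberg adjusted p under 0.05 over all tested genes. For 1299 of the higher genes (8.86%) and 1791 of the lower genes (12.2%) the responses also did not overlap: every CB2-/- PolyI:C library minus every CB2-/- unstimulated library lay on 1 side of every such difference in wild type. Held to a fold of at least 2, the difference was called higher for 252 genes and lower for 428.

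In most of the called genes the response passed the test in wild type and not in CB2-/-: 1456 of the 2045 lower genes rose in wild type alone and 1294 of the 1591 higher genes fell in wild type alone. Of the 3108 genes that rose in wild type, 599 (19.3%) also rose in CB2-/-; their median response, over all 3108, was 1.25 in wild type and 0.23 in CB2-/- on the log2 scale, and the difference was called lower for 1897 and higher for 0. Of the 2924 genes that fell in wild type, 305 (10.4%) also fell in CB2-/-, with medians of -1.45 and -0.24, and the difference was called higher for 1439. These genes were chosen by their wild-type response, so the reverse choice is given beside it. Of the 750 genes that rose in CB2-/-, 599 (79.9%) also rose in wild type, with medians of 0.95 in CB2-/- and 1.84 in wild type, and the difference was called lower for 404 and higher for 66. The 504 genes that fell in CB2-/- had like medians in both (-0.69 in CB2-/-, -0.66 in wild type), and 305 of them (60.5%) fell in both.

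**Figure D1:**
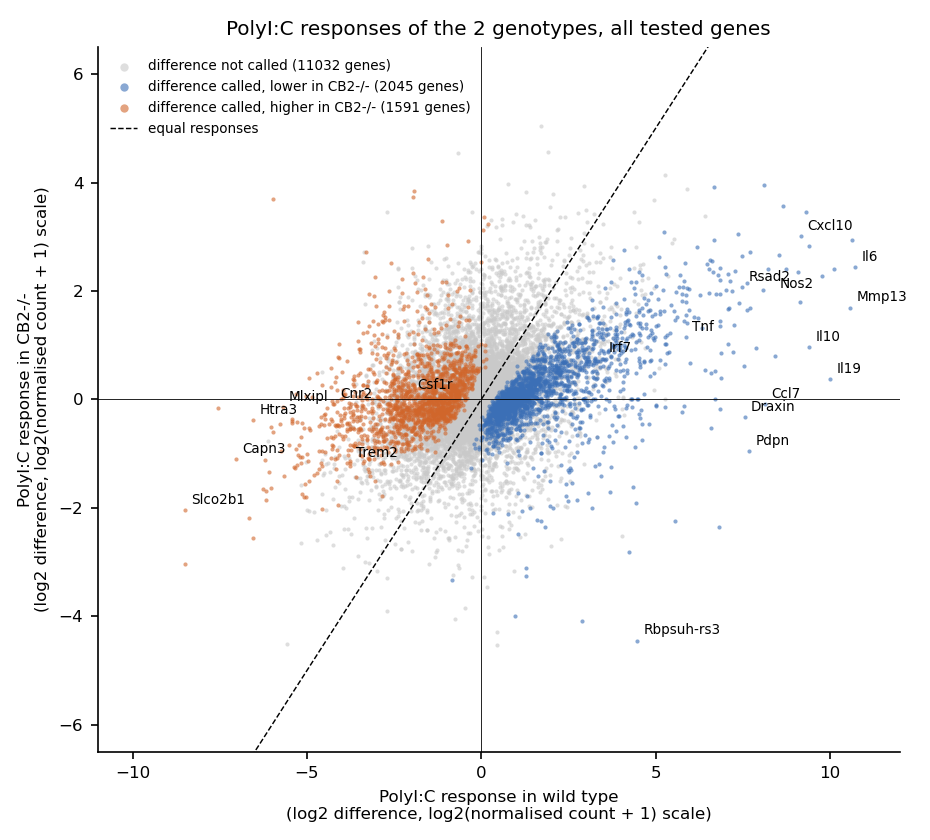
PolyI:C response of each of the 14668 tested genes in wild type (horizontal axis) and in CB2-/- (vertical axis), both as log2 differences from unstimulated cells, with the dashed line at equal responses. The 2045 genes called lower and the 1591 called higher in CB2-/- lie mainly along the horizontal axis, at wild-type responses that span a wider range than the CB2-/- responses.

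The difference can arise before or after the stimulus, so starting and end levels were set side by side. Of the 2045 genes called lower, CB2-/- lay above wild type in every unstimulated library for 1169 and below wild type in every PolyI:C library for 1574; 725 did both. Over all tested genes these shares were 19.1% above at the start and 21.5% below at the end. The counts for the called genes follow partly from the call itself. Of the 1591 genes called higher, CB2-/- lay below wild type in every unstimulated library for 916 (19.8% over all genes) and above it in every PolyI:C library for 1083 (19.4%).

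The 12 most negative differences were led by Il19. Il19, an interleukin-10 family cytokine (chr1:130932656-130940115, GRCm38), read 0, 0 and 0 normalised counts in unstimulated wild type and 383, 1692 and 1676 after PolyI:C. In CB2-/- cells Il19 read 0, 0 and 0 unstimulated and 0, 0 and 1.2 after PolyI:C, and the difference was -9.63 ± 1.13 (SE; adjusted p = 5.8e-07) on the log2(normalised count + 1) scale. Mmp13, collagenase 3 (chr9:7272514-7283331), read 60.1, 45.4 and 43.5 normalised counts in unstimulated wild type and 45468, 100102 and 98721 after PolyI:C. In CB2-/- cells Mmp13 read 841, 1050.3 and 1145 unstimulated and 3312, 3135 and 3293 after PolyI:C, and the difference was -8.88 ± 0.56 (SE; adjusted p = 3.79e-11). Il19 was high in the 3 wild-type PolyI:C libraries and near 0 in the other 9. Mmp13 rose in both genotypes and started higher in CB2-/- than in either unstimulated wild-type set, of which the second read 695, 209 and 162. Il10, the anti-inflammatory cytokine, read 0, 0 and 0.738 normalised counts in unstimulated wild type and 812, 804 and 816 after PolyI:C. In CB2-/- cells Il10 read 0, 6.72 and 2.80 unstimulated and 0, 7.30 and 25.4 after PolyI:C, and the difference was -8.43 ± 1.08 (SE; adjusted p = 2.21e-06). Il6, the acute-phase cytokine (chr5:30013114-30019981), read 0, 2.43 and 1.07 normalised counts in unstimulated wild type and 1152, 5421 and 5504 after PolyI:C. In CB2-/- cells Il6 read 16.2, 34.3 and 14.4 unstimulated and 86.6, 137 and 122 after PolyI:C, and the difference was -8.29 ± 0.94 (SE; adjusted p = 3.84e-07). In CB2-/- Il6 rose (2.44, adjusted p = 0.0221) but stayed far under every wild-type PolyI:C library, and among those replicate 1 was the lowest. Il10 in CB2-/- did not pass the test (0.97, adjusted p = 0.537).

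Nos2, the inducible nitric oxide synthase, differed at the start more than at the end. It read 0, 10.8 and 6.47 normalised counts in unstimulated wild type and 1865, 7905 and 8066 after PolyI:C. In CB2-/- cells Nos2 read 424, 764 and 822 unstimulated and 3221, 3619 and 3361 after PolyI:C, and the difference was -7.71 ± 1.16 (SE; adjusted p = 1.91e-05). The PolyI:C libraries of the genotypes overlap, because wild-type replicate 1 lies below all 3 CB2-/- libraries, while the unstimulated CB2-/- libraries are far above the wild-type ones. The second unstimulated wild-type set, at 443, 266 and 231, was also above the first, and with both sets as 1 baseline the difference was -4.67 and did not pass the test (adjusted p = 0.089). Ccl7, a monocyte-attracting chemokine, also started higher in CB2-/-. It read 1.09, 13.4 and 21 normalised counts in unstimulated wild type and 1097, 3760.2 and 3510.3 after PolyI:C. In CB2-/- cells Ccl7 read 565, 468 and 438 unstimulated and 472, 414 and 499.7 after PolyI:C, and the difference was -8.21 ± 1.26 (SE; adjusted p = 2.51e-05). Its CB2-/- libraries had nearly the same level with and without PolyI:C, while the second unstimulated wild-type set read 73.8, 34.1 and 1.11.

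The other leading genes were Pdpn (podoplanin, -8.63), Slfn4 (a Schlafen family gene, -7.68), Lcn2 (lipocalin 2, which binds bacterial iron carriers, -7.49), Draxin (an axon guidance protein, -7.88), the long non-coding transcript U90926 (-7.63) and Rbpsuh-rs3 (-8.92). Draxin and U90926 are listed at 0 in all 3 unstimulated wild-type libraries and at 118 to 436 after PolyI:C, and reached at most 4.25 in any CB2-/- library. Lcn2 reached 8454, 9703 and 10163 in wild type and 159, 156 and 223 in CB2-/- under PolyI:C. Rbpsuh-rs3 is a copy of Rbpj and can share its reads, and it was uneven between libraries, with 0, 176 and 60.9 in wild-type PolyI:C libraries and 76.9, 116 and 203 in the second unstimulated wild-type set. All 24 leading genes, 12 in each direction, kept an adjusted p under 0.05 when any 1 of the 12 libraries was left out (largest 0.00702). These genes were chosen for large differences without overlap in the same libraries, so this outcome follows largely from the choice. With both unstimulated wild-type sets as 1 baseline Nos2 (-4.67, adjusted p = 0.089) and Rbpsuh-rs3 (-5.45, adjusted p = 0.113) were not called. For genes near 0 in a group the log2 difference depends on the added 1 and is no fold.

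**Figure D2:**
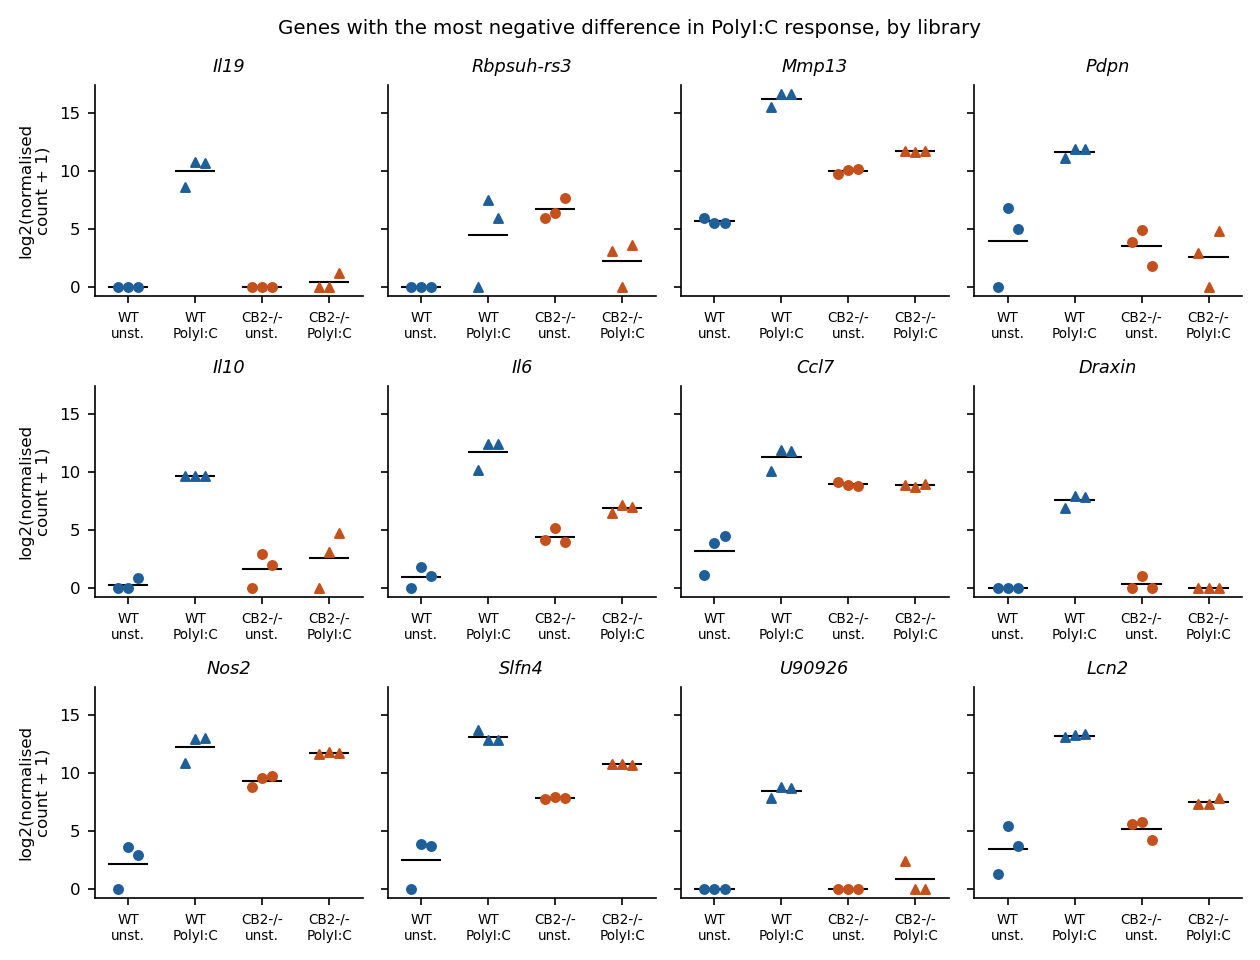
Level of the 12 genes with the most negative difference in each of the 12 libraries, as log2(normalised count + 1). Circles are unstimulated and triangles PolyI:C libraries, blue wild type and orange CB2-/-, and bars are group means of 3. Il19, Draxin and U90926 stand near 0 in all groups but wild type under PolyI:C, while Mmp13, Ccl7, Nos2 and Slfn4 start higher in CB2-/-.

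Interferon-stimulated genes, which carry out the antiviral state, responded less in CB2-/- as a group. All 35 of the 35 listed genes rose in wild type and 28 rose in CB2-/-, with median responses of 3.73 and 1.13, and the difference was called lower for 35 of 35 (median -2.72) beside 13.9% of all genes, whose median was 0.08. They also started higher in CB2-/-: 35 of 35 were above the second unstimulated wild-type set by the test (6.25% of all genes higher and 9.9% called either way; median 1.77), and 30 of 35 lay above all libraries of the first set. After PolyI:C 34 of 35 lay below all wild-type libraries, with a median end level -1.21 log2 units from wild type. The mean log2 level of the list was 8.29 to 8.72 in unstimulated wild type, 7.92 to 8.56 in its second set, 12.44 to 12.55 in wild type under PolyI:C, 10.13 to 10.16 in unstimulated CB2-/- and 11.26 to 11.29 in CB2-/- under PolyI:C.

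Rsad2, which encodes the antiviral enzyme viperin (chr12:26442746-26456452), had the largest difference of the list. It read 169, 193 and 148 normalised counts in unstimulated wild type and 23688, 34273 and 34273 after PolyI:C. In CB2-/- cells Rsad2 read 2199, 2143 and 2186 unstimulated and 8904, 8945 and 9605 after PolyI:C, and the difference was -5.41 ± 0.39 (SE; adjusted p = 3e-10). Ifit3b, of the IFIT family that binds foreign RNA, followed with -4.5 ± 1.11 (SE; adjusted p = 0.0038); its reads can be shared with Ifit3. Ifi47, an interferon-inducible GTPase, read 28.8, 50.9 and 81.5 normalised counts in unstimulated wild type and 2464, 3015 and 3137 after PolyI:C. In CB2-/- cells Ifi47 read 354, 359 and 377 unstimulated and 839, 1170.0 and 1006 after PolyI:C, and the difference was -4.37 ± 0.34 (SE; adjusted p = 8.08e-10). No wild-type and CB2-/- library of the same treatment overlapped in Rsad2 or Ifi47, with CB2-/- higher before and lower after PolyI:C.

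Promoters of these genes were read for the interferon-stimulated response element (ISRE), to which STAT and IRF factors bind, and for a kB site, to which NF-kB binds, because the 2 kinds of target genes moved together here. The letters searched were GAAA, any 2 bases and a second GAAA for the ISRE, and GGG, any 2 bases and TTTCC for kB, on both strands, in the 250 bases before each gene's start (RefSeq, GRCm38.p6). The ISRE letters were found in 11 of 27 interferon-list promoters (40.7%), 0 of 11 cytokine promoters and 2 of 12 chemokine promoters (16.7%), against 2.98% of all 32851 promoters. The kB letters were found in 0 of 27, 2 of 11 (18.2%) and 4 of 12 (33.3%), against 1.41%. A match is a description of the letters, and no binding was measured. The sequences below run 5′ to 3′ towards the gene with matches in capitals, ISRE in the first 3 and kB in the last, and show the leading interferon-list genes with a match and Cxcl10 and Il6 of the panel as a chemokine and a cytokine with a match.
Rsad2 (chr12:26456453-26456702, - strand): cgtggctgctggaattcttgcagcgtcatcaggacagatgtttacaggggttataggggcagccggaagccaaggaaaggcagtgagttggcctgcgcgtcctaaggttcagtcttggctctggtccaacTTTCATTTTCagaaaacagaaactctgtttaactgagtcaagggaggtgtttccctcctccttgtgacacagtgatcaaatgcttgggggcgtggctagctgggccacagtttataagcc
Ifit3b (chr19:34607707-34607956, + strand): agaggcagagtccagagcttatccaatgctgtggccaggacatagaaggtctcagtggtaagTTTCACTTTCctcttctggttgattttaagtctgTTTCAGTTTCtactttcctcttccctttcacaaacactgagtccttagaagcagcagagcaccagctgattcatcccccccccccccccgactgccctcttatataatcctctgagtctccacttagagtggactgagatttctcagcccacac
Cxcl10 (chr5:92348890-92349139, - strand): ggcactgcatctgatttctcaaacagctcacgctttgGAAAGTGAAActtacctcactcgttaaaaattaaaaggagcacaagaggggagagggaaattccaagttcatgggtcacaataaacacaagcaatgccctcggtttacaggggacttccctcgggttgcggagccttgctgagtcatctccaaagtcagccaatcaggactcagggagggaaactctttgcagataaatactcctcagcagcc
Il6 (chr5:30012864-30013113, + strand): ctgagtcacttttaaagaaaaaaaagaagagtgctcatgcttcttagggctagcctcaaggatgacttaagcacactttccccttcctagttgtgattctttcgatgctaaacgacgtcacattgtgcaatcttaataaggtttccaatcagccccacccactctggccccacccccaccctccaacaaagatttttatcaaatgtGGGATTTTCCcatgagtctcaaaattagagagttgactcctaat

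Sensors of double-stranded RNA are themselves interferon-induced in most cells. Of 22 genes of the sensing list, the difference was called lower for 12 and higher for 2 (13.9% and 10.8% of all genes), with a median of -0.59. Tlr3 read 361, 336 and 317 normalised counts in unstimulated wild type and 1758, 2416 and 2205 after PolyI:C. In CB2-/- cells Tlr3 read 552, 364 and 492 unstimulated and 920.1, 927 and 998 after PolyI:C, and the difference was -1.60 ± 0.30 (SE; adjusted p = 0.000267): it rose in both genotypes, by 2.64 and 1.03. Ifih1 (MDA5) differed by -2.22 ± 0.29 (SE; adjusted p = 3.26e-06) and Ddx58 (RIG-I) by -2.04 ± 0.24 (SE; adjusted p = 4.79e-07), and both rose in each genotype. Zbp1, a sensor of Z-form nucleic acids, rose by 4.07 in wild type and read 0.54 in CB2-/- (adjusted p = 0.221), from a start 2.73 log2 units above the second wild-type set. The adaptors moved little: Ticam1 differed by -0.60 ± 0.20 (SE; adjusted p = 0.0305), a call that was lost in 6 of 12 fits with 1 library left out, and Mavs, the adaptor of RIG-I and MDA5, by 0.60 ± 0.20 (SE; adjusted p = 0.0334), lost in 7 of 12 and with a single unstimulated wild-type baseline (0.40, adjusted p = 0.2). Traf6, a ubiquitin ligase of Toll-like receptor signalling, rose in CB2-/- (0.91) and read -0.19 in wild type, a difference of 1.10 ± 0.26 (SE; adjusted p = 0.00265).

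Among the transcription factors, Irf7, the interferon-induced amplifier of the pathway, read 2459.9, 2630.4 and 2350.1 normalised counts in unstimulated wild type and 27224, 26898 and 28196 after PolyI:C. In CB2-/- cells Irf7 read 6737, 7871 and 7330.2 unstimulated and 12016, 12731 and 12070.3 after PolyI:C, and the difference was -2.72 ± 0.13 (SE; adjusted p = 3.31e-13). The groups were well separated, with CB2-/- above wild type in every library at the start and under it at the end. Stat2, which carries the interferon signal to the nucleus, differed by -1.46 ± 0.31 (SE; adjusted p = 0.00112), and was not called after quantile scaling (-0.74, adjusted p = 0.108). Irf3, which is present before infection and is switched on by phosphorylation, differed by 0.28 ± 0.24 (SE; adjusted p = 0.444) and did not pass the test. With library weights, however, Irf3 was called higher (0.73, adjusted p = 0.00317). Of 15 IRF and STAT factors the difference was called lower for 6 and higher for 2, beside 13.9% and 10.8% of all genes. The 2 higher were Stat4 (5.11) and Irf4 (4.23), and the median of the list was -0.11. Stat4 was not called with a single unstimulated wild-type baseline (3.54, adjusted p = 0.0721). The call of Irf4 was lost in 9 of 12 fits with 1 library left out. Ifnb1, interferon-β, read 0, 11.6 and 5.80 in wild type and 0, 2.43 and 14.8 in CB2-/- under PolyI:C and at most 2.95 in unstimulated libraries of both groups; at this depth a difference (-0.15 ± 1.31 (SE; adjusted p = 0.956)) was not detectable at 16 h. Of 16 guanylate-binding proteins and immunity-related GTPases, families induced by interferon-γ, 15 rose in wild type and 14 in CB2-/-, and the difference was called lower for 12 beside 13.9% of all genes (median -2.94), led by Gbp3 (-4.63), Iigp1 (-4.5) and Gbp5 (-4.30). These families share sequence, so single members are uncertain.

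Of 17 proinflammatory cytokines 14 rose in wild type and 10 in CB2-/-, with medians of 3.31 and 1.37, and the difference was called lower for 11 and higher for 0 (13.9% and 10.8% of all genes). The other 6 cytokines were not called. Tnf, the tumour necrosis factor, read 129, 81.3 and 72.5 normalised counts in unstimulated wild type and 3933, 6276 and 6245 after PolyI:C. In CB2-/- cells Tnf read 228, 226 and 179 unstimulated and 477, 466 and 453 after PolyI:C, and the difference was -4.72 ± 0.29 (SE; adjusted p = 2.27e-11). It rose in both genotypes, from a higher start in CB2-/-, and every CB2-/- PolyI:C library was under every wild-type one. Csf3, which encodes the granulocyte growth factor G-CSF, differed by -6.57 ± 0.87 (SE; adjusted p = 3.5e-06) and Il1a by -6.08 ± 1.21 (SE; adjusted p = 0.000489). Il1b read 4712, 2831 and 3782 normalised counts in unstimulated wild type and 13111, 29268 and 30729 after PolyI:C. In CB2-/- cells Il1b read 2063, 2189.5 and 1773 unstimulated and 6285, 5900.1 and 6658 after PolyI:C. The difference of -0.97 ± 0.48 (SE; adjusted p = 0.148) did not pass the test, although every CB2-/- PolyI:C library was under every wild-type one. Its baseline depends on the unstimulated wild-type set, since the second set read 904, 541 and 497; with both sets as 1 baseline the difference was -2.26 (adjusted p = 0.0493). With the first set as baseline Il1b was called with library weights (-1.29, adjusted p = 0.000146) and in the batch-corrected table (-0.88, adjusted p = 0.0398). Among the fits with 1 library left out it was called only without wild-type PolyI:C replicate 1 (-1.37, adjusted p = 0.0266).

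Of 19 chemokines 15 rose in wild type and 7 in CB2-/-, with medians of 4.44 and 0.64, and the difference was called lower for 11 and higher for 1 (13.9% and 10.8% of all genes), with 7 not called. Cxcl10, an interferon-induced T cell attractant (chr5:92346638-92348889), read 11.8, 81.0 and 45.7 normalised counts in unstimulated wild type and 14555, 25442 and 26140.4 after PolyI:C. In CB2-/- cells Cxcl10 read 389, 354 and 319 unstimulated and 2736, 2797 and 3019 after PolyI:C, and the difference was -6.18 ± 0.58 (SE; adjusted p = 2.01e-08). Ccl5, another T cell attractant, read 3862, 3444 and 3700.0 normalised counts in unstimulated wild type and 71958, 69172 and 72529 after PolyI:C. In CB2-/- cells Ccl5 read 3124, 3999 and 3908 unstimulated and 16721, 16286 and 16078 after PolyI:C, and the difference was -2.12 ± 0.14 (SE; adjusted p = 7.3e-11). Both genes rose in both genotypes and ended lower in every CB2-/- library, and Ccl5 alone of the pair started at overlapping levels. Ccl2, the main monocyte attractant, read 20.5, 88.4 and 59.3 normalised counts in unstimulated wild type and 2275, 8683 and 8819 after PolyI:C. In CB2-/- cells Ccl2 read 2593, 2123 and 1632 unstimulated and 1719.8, 1799 and 2003 after PolyI:C, and the difference was -7.02 ± 1.04 (SE; adjusted p = 1.66e-05). Its CB2-/- level was the same with and without PolyI:C within the spread of the libraries. Cxcl9 differed by -6.48 ± 1.31 (SE; adjusted p = 0.000618). Cxcl14, which is made without inflammation, was the only chemokine called higher: it fell by 2.62 on the log2 scale in wild type and read -0.81 in CB2-/- (adjusted p = 0.0966).

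Of 23 NF-kB subunits and feedback genes, 22 rose in wild type and 14 in CB2-/-, and the difference was called lower for 18 and higher for 0 (13.9% and 10.8% of all genes), with a median of -1.84. Traf1, an NF-kB target that binds TNF receptors, had -5.47 ± 0.41 (SE; adjusted p = 4.76e-10), and Dusp2, a MAP kinase phosphatase, -4.06 ± 0.60 (SE; adjusted p = 1.63e-05). Socs3, which inhibits cytokine receptors, differed by -3.67 ± 0.32 (SE; adjusted p = 8.09e-09) and Il1rn, the interleukin-1 receptor antagonist, by -5.98 ± 0.26 (SE; adjusted p = 5.24e-14). Il1rn read 331, 255 and 235 normalised counts in unstimulated wild type and 45032, 57778 and 59726 after PolyI:C. In CB2-/- cells Il1rn read 1786, 1953 and 1776 unstimulated and 5278, 5649 and 6369 after PolyI:C, with no overlap between any 2 groups.

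Of 22 genes of the class I pathway 21 rose in wild type and 17 in CB2-/-, and the difference was called lower for 19 beside 13.9% of all genes (median -1.28); H2-Q6 (-3.31), H2-T22 (-2.77) and H2-Q7 (-2.76) led; H2-Q6 and H2-Q7 can share reads. The genotypes lay further apart at the start than at the end: H2-Q6 read 567, 789.5 and 642 normalised counts in unstimulated wild type and 16044, 14595 and 15112 after PolyI:C. In CB2-/- cells H2-Q6 read 4662, 5585 and 5686 unstimulated and 12207, 12319 and 12450.1 after PolyI:C. The class I list started 0.75 above wild type at the median and ended at -0.37 relative to it. Of 11 class II genes, 1 was called higher (H2-DMa, 3.41) and 1 lower (H2-Ab1, -2.25), shares no larger than the 10.8% and 13.9% of all genes. With both unstimulated wild-type sets as 1 baseline H2-Ab1 was not called (-0.25, adjusted p = 0.906). Costimulatory Cd40 (-4.44) and the checkpoint ligand Cd274 (-3.30) were among 5 of 12 genes of that list called lower, and Vsir (2.03) and Cd200r1 (1.82) were the 2 called higher (13.9% lower and 10.8% higher of all genes). Cd200r1 had an adjusted p of 0.0514 in a fit of the 12 libraries alone.

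Ptgs2, the inducible cyclooxygenase, read 66.2, 349 and 102 normalised counts in unstimulated wild type and 17044, 27460.1 and 25154 after PolyI:C. In CB2-/- cells Ptgs2 read 1059, 1055 and 1111 unstimulated and 3373, 3626 and 4093 after PolyI:C, and the difference was -5.63 ± 0.71 (SE; adjusted p = 1.81e-06), and Ptges, which makes prostaglandin E2 from its product, differed by -6.34 ± 0.68 (SE; adjusted p = 1.44e-07). Of 15 genes on the prostaglandin list 5 were called higher, Hpgd and Slco2b1 among them, and 4 lower (10.8% and 13.9% of all genes). Acod1, which makes the metabolite itaconate, differed by -4.84 ± 0.47 (SE; adjusted p = 3.73e-08), and Slc7a2, an arginine carrier, by -6.04 ± 0.80 (SE; adjusted p = 3.05e-06). The antioxidant genes Gclm (2.23) and Gclc (1.74), which make glutathione, fell in wild type and were the 2 of 19 called higher in that list, with 7 lower and 10 not called (10.8% higher and 13.9% lower of all genes). Of 18 metalloproteinases and inhibitors 9 were called lower and 2 higher (13.9% and 10.8% of all genes). Ch25h, which makes 25-hydroxycholesterol, differed by -6.90 ± 0.60 (SE; adjusted p = 6e-09). Among 17 Fc and scavenger receptors 10 were called lower, led by Clec4e (-3.92), Marco (-3.10) and Msr1 (-2.54), and 4 higher, led by Mrc1 (2.23), Fcgr3 (1.89) and Stab1 (1.25), beside 13.9% and 10.8% of all genes. Stab1 was not called with a single unstimulated wild-type baseline (0.80, adjusted p = 0.0719).

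The 12 genes with the most positive difference all fell in wild type under PolyI:C, and in CB2-/- Hpgd alone of them passed the test. Slco2b1, an organic anion carrier and a marker of resting microglia (chr7:99657804-99711340), read 820.1, 1178 and 975 normalised counts in unstimulated wild type and 8.31, 1.16 and 0 after PolyI:C. In CB2-/- cells Slco2b1 read 1283, 1201 and 1404 unstimulated and 274, 419 and 267 after PolyI:C, and the difference was 6.45 ± 1.07 (SE; adjusted p = 6.62e-05). Hpgd, the enzyme that inactivates prostaglandins (chr8:56294585-56321043), read 4013, 3300.1 and 3082 normalised counts in unstimulated wild type and 7.08, 11.6 and 7.25 after PolyI:C. In CB2-/- cells Hpgd read 488, 434 and 336 unstimulated and 36.8, 65.7 and 50.0 after PolyI:C, and the difference was 5.47 ± 0.51 (SE; adjusted p = 2.22e-08). Hpgd fell in both genotypes, from a lower start in CB2-/-, while the response of Slco2b1 in CB2-/- did not pass the test (-2.04, adjusted p = 0.105). Cxcr4, the receptor of the chemokine CXCL12 (chr1:128588199-128592293), read 1664, 1441 and 1464 normalised counts in unstimulated wild type and 20.0, 31.9 and 19.7 after PolyI:C. In CB2-/- cells Cxcr4 read 1195, 1444 and 1452 unstimulated and 933, 908 and 832 after PolyI:C, and the difference was 5.36 ± 0.57 (SE; adjusted p = 1.57e-07). All 3 CB2-/- PolyI:C libraries of these 3 genes lay above all 3 wild-type ones.

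The remaining leading genes were Htra3 (a serine protease, 6.16), Capn3 (a calpain, 5.94), Mlxipl (the glucose-sensing factor ChREBP, 5.55), Tmem37 (5.52), Amz1 (5.12), Slc46a3 (5.08), Gpr34 (a lysophospholipid receptor of resting microglia, 5.08), Ptgfrn (5.05) and Tbc1d4 (4.98). For Htra3, Capn3, Mlxipl, Slc46a3, Gpr34 and Tbc1d4 the starting level in CB2-/- was below wild type, with no overlap of the libraries. Gpr34 read 769, 469 and 740.3 normalised counts in unstimulated wild type and 7.21, 8.83 and 7.38 after PolyI:C. In CB2-/- cells Gpr34 read 42.6, 63.6 and 94.0 unstimulated and 37.4, 27.3 and 23.1 after PolyI:C, and Capn3 read 10.7, 10.4 and 16.9 in unstimulated CB2-/- against 181, 166 and 206 in wild type. Tmem37 and Cxcr4 started at overlapping levels, Ptgfrn somewhat lower and Amz1 higher in CB2-/-. Tmem37 stood at 532, 528 and 531 in CB2-/- and 469.8, 686 and 527 in wild type without stimulus. Under PolyI:C it read 4.72, 14.4 and 5.80 in wild type and 351, 472 and 308 in CB2-/-.

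**Figure D3:**
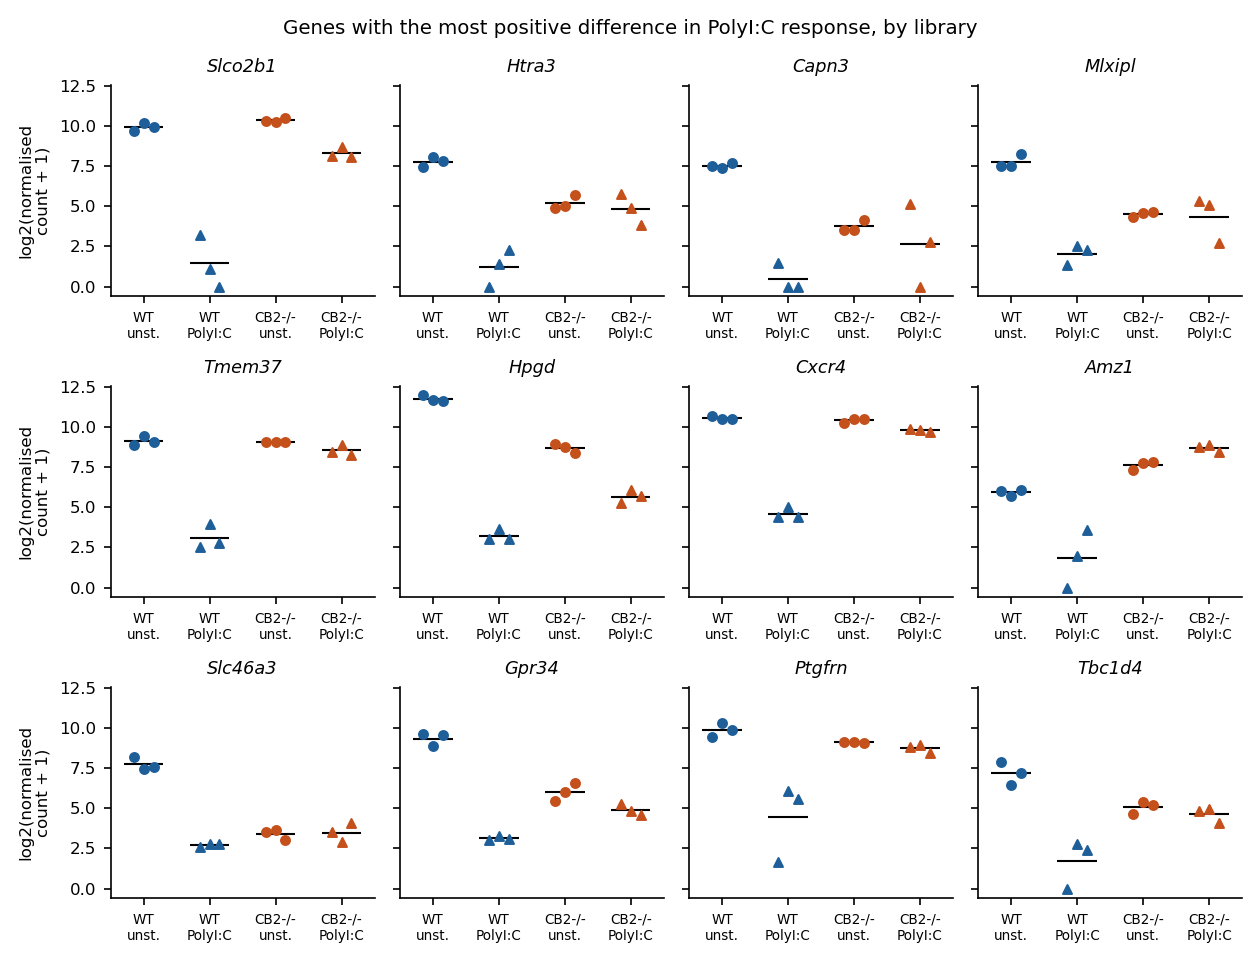
Level of the 12 genes with the most positive difference in each of the 12 libraries, as log2(normalised count + 1), with symbols as for the lower genes. The wild-type PolyI:C libraries (blue triangles) lie below the unstimulated wild-type libraries for every gene shown, and for Slc46a3, Capn3 and Mlxipl the CB2-/- groups are both low.

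Homeostatic genes of microglia, which mark the resting state of these cells in the brain, fell in wild type as a group. Of 31 tested 27 fell in wild type and 9 in CB2-/-, with medians of -2.08 and -0.51, and the difference was called higher for 21 (10.8% of all genes) and lower for 1. Without both libraries that stood apart 16 were called higher. Cx3cr1, the fractalkine receptor, read 7929, 7859 and 7869 normalised counts in unstimulated wild type and 281, 403 and 382 after PolyI:C. In CB2-/- cells Cx3cr1 read 1655, 1699 and 1930.4 unstimulated and 920.4, 977 and 811 after PolyI:C, and the difference was 3.52 ± 0.27 (SE; adjusted p = 1.09e-09). Tmem119, a microglial surface marker, read 420.5, 677 and 581 normalised counts in unstimulated wild type and 4.5, 19.3 and 27.6 after PolyI:C. In CB2-/- cells Tmem119 read 143, 166 and 152 unstimulated and 116, 76.6 and 68.4 after PolyI:C, and the difference was 4.37 ± 0.73 (SE; adjusted p = 7.16e-05). Cx3cr1 levels of the genotypes did not overlap with or without PolyI:C: CB2-/- was lower at the start and higher at the end. Csf1r, the receptor for the growth factors that microglia need to live, read 35539.5, 36201 and 35754 normalised counts in unstimulated wild type and 7721, 9226 and 9530.4 after PolyI:C. In CB2-/- cells Csf1r read 11533, 12464 and 12776 unstimulated and 12872, 13445 and 12586 after PolyI:C, and the difference was 2.11 ± 0.18 (SE; adjusted p = 5.9e-09), and its CB2-/- response was close to 0 (0.08). Trem2, a lipid receptor, fell in both (-3.77 and -1.18), with 2.59 ± 0.35 (SE; adjusted p = 4.87e-06). P2ry6, a UDP receptor, was the only member called lower (-0.60 ± 0.20 (SE; adjusted p = 0.0335)), a call lost in 7 of 12 fits with 1 library left out and after quantile scaling (-0.19, adjusted p = 0.561). The list started lower in CB2-/-: 23 of 31 lay below the first unstimulated wild-type set and 17 below the second (19.8% and 17.1% of all genes), and 17 lay above wild type under PolyI:C (19.4%).

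Sterol synthesis and glycolysis gave large counts that shrank when both unstimulated wild-type sets were taken as 1 baseline. Of 26 cholesterol genes the difference was called higher for 20 (median 1.85) and lower for 1, beside 10.8% and 13.9% of all genes; 22 fell in wild type and 3 in CB2-/-. Sqle, squalene epoxidase, read 391, 341 and 315 normalised counts in unstimulated wild type and 28, 14.7 and 25.5 after PolyI:C. In CB2-/- cells Sqle read 126, 141 and 155 unstimulated and 108, 139 and 102 after PolyI:C, and the difference was 3.65 ± 0.32 (SE; adjusted p = 9.16e-09). The single lower gene was Nr1h3, the oxysterol receptor LXRα (-2.25), which was not called with both sets as 1 baseline (-1.45, adjusted p = 0.108). Of 19 glycolysis genes 18 rose in wild type and 7 in CB2-/-, and 13 were called lower beside 13.9% of all genes (median -1.17). Pgk1, a glycolytic enzyme, read 1735, 2449.6 and 2204 normalised counts in unstimulated wild type and 9942, 14793 and 15348 after PolyI:C. In CB2-/- cells Pgk1 read 10369, 12726 and 12452 unstimulated and 11006, 13710.0 and 13200.5 after PolyI:C, and the difference was -2.54 ± 0.23 (SE; adjusted p = 1.12e-08). The second unstimulated wild-type set read 8983, 12066 and 10763 for Pgk1, near the CB2-/- libraries, and with both sets as 1 baseline the difference was not called (-1.38, adjusted p = 0.142). In that set 16 of 26 cholesterol genes were lower and 17 of 19 glycolysis genes higher than in the first set. With both sets as 1 baseline 8 cholesterol genes and 3 glycolysis genes were called, against 35 of 35 interferon-list genes and 19 of 31 homeostatic genes. That fit also counts the gap between the sets as spread. A lost call can thus reflect a larger error as well as a smaller difference, and the second set alone was not fitted. The same holds wherever both sets were used as 1 baseline.

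**Figure D4:**
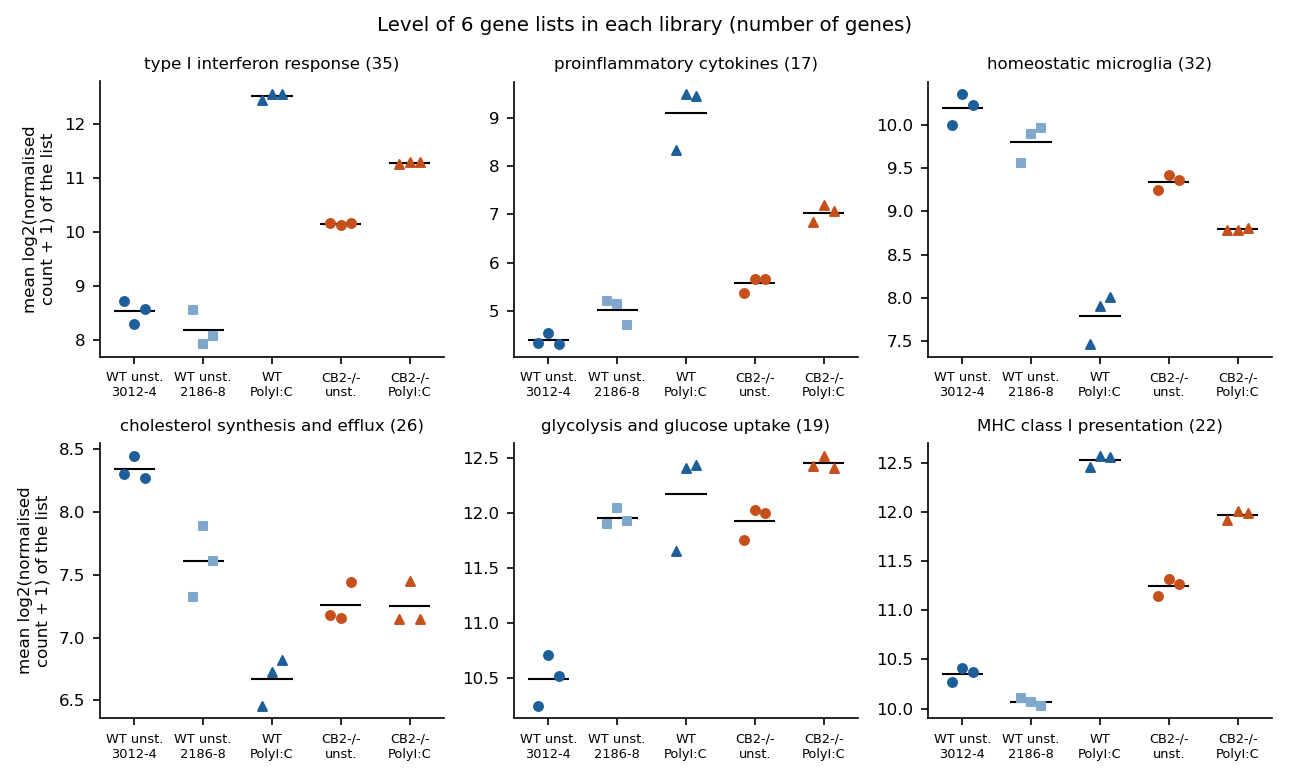
Mean log2(normalised count + 1) of 6 gene lists in each library, with both sets of unstimulated wild-type libraries (circles 3012 to 3014, squares 2186 to 2188); the number after each name counts the measured members (32 homeostatic genes, 31 of them tested). The interferon list rises from 8.29 to 8.72 to 12.44 to 12.55 in wild type and from 10.13 to 10.16 to 11.26 to 11.29 in CB2-/-, while for glycolysis the second set (11.90 to 12.05) lies with unstimulated CB2-/- (11.76 to 12.03) and not with the first set (10.25 to 10.71).

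The shares to set beside the counts of the next lists are 13.9% of all tested genes called lower and 10.8% called higher. The difference was called lower for 12 of 17 inflammasome and cell death genes, among them Mlkl (-3.49), the effector of necroptosis, and Nlrp3 (-2.51), an inflammasome sensor, and higher for 1, Bcl2l11 (1.87). It was lower for 13 of 22 stress response genes and higher for 0, led by Hspa1a (-4.41), a heat shock protein whose reads can be shared with Hspa1b and which was not called with a single unstimulated wild-type baseline (-2.63, adjusted p = 0.184). Of 21 disease-associated microglia genes 5 were higher and 5 lower: Ctsd (1.10) and Lpl (1.07) higher, Ch25h and Spp1 (-2.45) lower. Spp1, osteopontin, read 11393, 15293 and 15181 normalised counts in unstimulated wild type and 9700.1, 24338 and 22888 after PolyI:C. In CB2-/- cells Spp1 read 27078, 24665 and 23202 unstimulated and 5373, 6179.8 and 5879 after PolyI:C: it fell in CB2-/- alone, and its wild-type response of 0.34 did not pass the test. The difference of Spp1 was not called after quantile scaling (-1.48, adjusted p = 0.0995) or with a single unstimulated wild-type baseline (-1.47, adjusted p = 0.19). Without both libraries that stood apart Ctsd (0.75, adjusted p = 0.0644) and Lpl (0.65, adjusted p = 0.0698) were not called. Lysosomal genes were called for 8 higher and 6 lower of 24, with Lipa, the acid lipase, at 1.8, and complement genes for 3 and 6 of 17, with factor B (Cfb, -5.42) among the lower. Of 13 endocannabinoid genes 4 were called higher, with Cnr2, Daglb (2.69), which makes the ligand 2-AG, and Abhd12 (1.50), which breaks it down, and 2 lower, Gpr55 (-3.62) and Gpr18 (-3.43). Gpr55 was not called without wild-type PolyI:C replicate 1 (-3.02), unstimulated wild-type replicate 2 (-3.17) or unstimulated CB2-/- replicate 3 (-3.20), with adjusted p from 0.0589 to 0.0661. Among 17 growth factors 4 were higher, led by Hgf (4.45), and 0 lower. Of 13 iron genes 2 were higher, with the iron exporter Slc40a1 at 4.90, and 4 lower, with ceruloplasmin (Cp) at -3.97. Cell cycle genes were called for 4 higher and 3 lower of 30, near the shares of all genes.

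**Figure D5:**
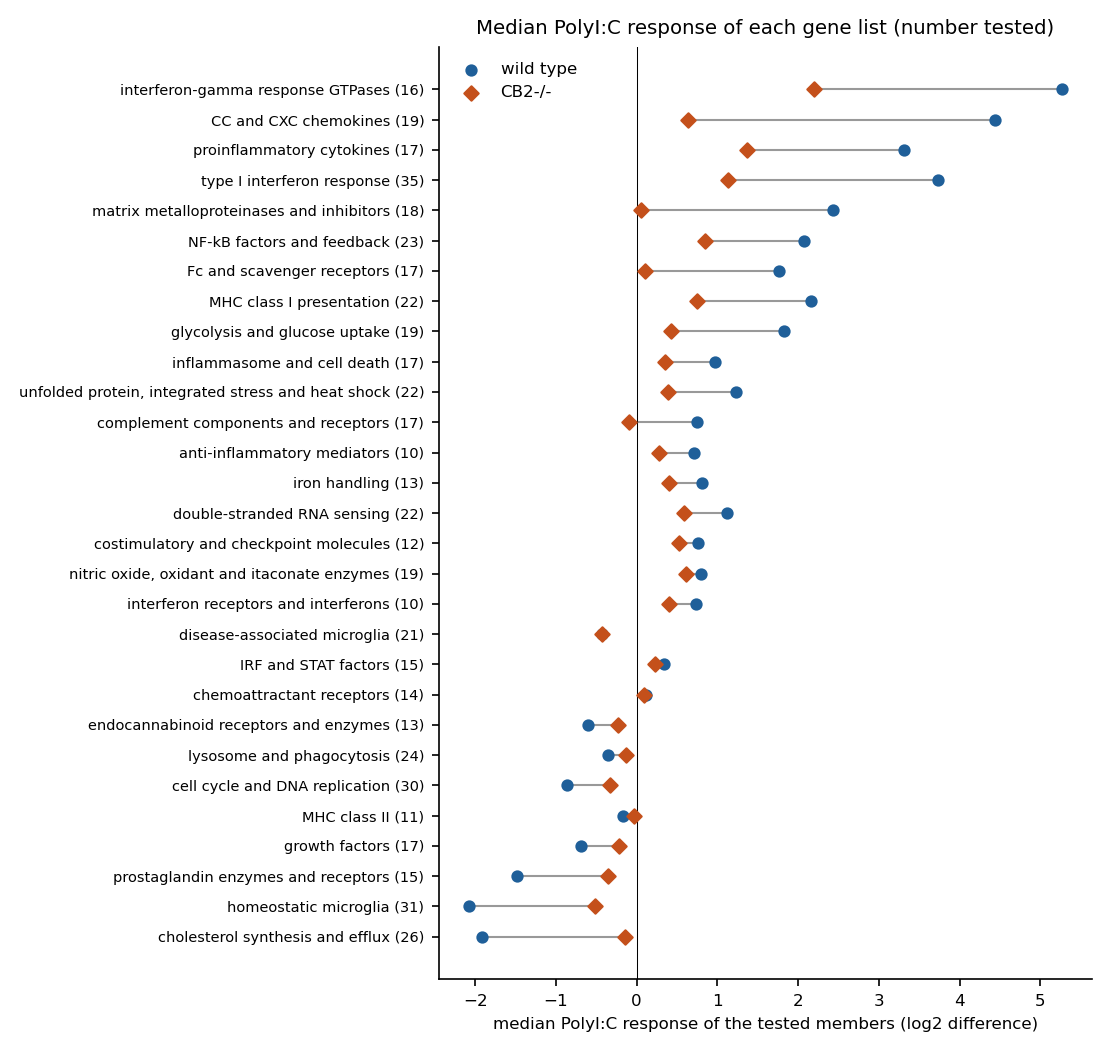
Median PolyI:C response of the tested members of each functional gene list, in wild type (blue circles) and CB2-/- (orange diamonds), as log2 differences, ordered by the median difference. Lists of cell type markers and of RNA quality are not drawn. The CB2-/- median lies nearer to 0 than the wild-type median for most lists, with wide gaps in interferon-γ response GTPases, chemokines, cytokines and the type I interferon list.

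Markers of other cells and of RNA quality were read beside these results. Microglia and macrophage markers were abundant in all groups (summed normalised count 73044 to 74983 in unstimulated wild type, 48159.6 to 48895 under PolyI:C, 36423 to 38418 and 33712 to 35894 in CB2-/-), with 3 of 9 called higher and 2 lower in the difference (10.8% and 13.9% of all genes). In the second unstimulated wild-type set these markers summed to 36981 to 51824, which overlaps unstimulated CB2-/-. There 6 of 9 were called lower than in the first set, beside 5.66% of all genes. Astrocyte markers summed to 335 to 1555 and 71.5 to 771 in wild type and to 343 to 492 and 357 to 558 in CB2-/-, with 1 of 11 called (Aldoc, 3.34), a call lost without unstimulated CB2-/- replicate 1 (3.10) or unstimulated wild-type replicate 3 (3.07). Fibroblast markers summed to 5162 to 32003 and 249.5 to 2675 in wild type and to 13549.5 to 14790.4 and 4319 to 5125 in CB2-/-, with 0 of 11 called in the difference; Mgp was at 0 in CB2-/- under PolyI:C. Monocyte and neutrophil genes rose in wild type (5 of 6), where the list summed to 30.0 to 45.2 before and 304 to 419 after PolyI:C, against 22.7 to 50.5 and 40.7 to 51.1 in CB2-/-; 5 of 6 were called lower (13.9% of all genes), while S100a9 and Mpo, which define these cells, were at 0 in both PolyI:C groups. Neuron, endothelium and lymphocyte markers had 0 members called, and oligodendrocyte markers 1 in each direction. Fn1, a fibroblast marker (2.57, adjusted p = 0.0685), was called with library weights (2.12, adjusted p = 0.00208) and in the batch-corrected table (1.36, adjusted p = 3.34e-05). Quantile scaling, a single unstimulated wild-type baseline and some fits with 1 library left out also called it. Kdr, an endothelial marker (-1.74, adjusted p = 0.178), was called with library weights (-1.44, adjusted p = 0.0473) and in the batch-corrected table (-1.23, adjusted p = 0.0188). Ribosomal protein genes fell in 25 of 32 in each genotype, beside 19.9% of all genes in wild type and 3.44% in CB2-/-. The difference was called lower for 2 of 32, a smaller share than the 13.9% of all genes. Of these, Rpl24 was not called after quantile scaling (-0.05, adjusted p = 0.859), and the call of Rpl27 was lost in 4 of 12 fits with 1 library left out. Mitochondrially encoded transcripts summed to 202371 to 204028 in unstimulated wild type, 73775 to 92447 in its second set and 38036 to 48943 in unstimulated CB2-/-. In the second set 11 of 13 were called lower than in the first. The difference was called higher for 5 of 13 and lower for 0 (median 0.28), beside 10.8% and 13.9% of all genes. With a single unstimulated wild-type baseline mt-Nd5 (0.32, adjusted p = 0.623), mt-Cytb (0.39, adjusted p = 0.468) and mt-Nd6 (0.07, adjusted p = 0.946) were not called. In bulk RNA fewer cells of a type and less RNA per cell cannot be told apart, and the part of these markers in the differences above was not tested.

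Whether the genotype difference was another for PolyI:C than for the other stimuli was tested as a contrast of the contrasts, in which the unstimulated libraries cancel. Against LPS with interferon-γ (100 and 20 ng/ml), which activates TLR4, 9.24% of genes differed: 678 were more positive (4.62%) and 678 more negative (4.62%) in CB2-/- under PolyI:C. Against CpG (1 nmol/ml), a stimulus of TLR9, 874 were more positive (5.96%) and 1621 more negative (11.1%). The interferon list was more negative under PolyI:C in 21 of 35 against LPS (median -1.0) and in 35 of 35 against CpG (median -3.26). The medians of the single genotype differences were -2.72 for PolyI:C, -1.81 for LPS and 0.50 for CpG; these 3 share the unstimulated libraries. Homeostatic genes were more positive under PolyI:C in 12 of 31 against LPS and in 12 against CpG (with 3 more negative), with medians of 1.69, 0.58 and 0.85 for the 3 stimuli. Cytokines were more negative in 10 of 17 against LPS and 13 of 17 against CpG, chemokines in 4 and 14 of 19.

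Il19 had the most negative difference against each of the other stimuli among the named genes. Its group means were 1250.5 in wild type and 0.401 in CB2-/- under PolyI:C, 36.0 and 3.31 under LPS, and 19.2 and 8.42 under CpG, which gave -6.35 ± 1.13 (SE; adjusted p = 0.000479) against LPS and -9.39 ± 1.13 (SE; adjusted p = 1.19e-06) against CpG. Il10 behaved alike against LPS, with -6.33 ± 1.08 (SE; adjusted p = 0.000336), although its highest wild-type mean was under CpG (2176, with 611 in CB2-/-). Il6 had means of 7364 and 1994 under LPS and of 314 and 1334 under CpG, and so differed from CpG (-7.45 ± 0.94 (SE; adjusted p = 2.78e-06)), where CB2-/- was the higher genotype. Nos2 and Ccl7 did not pass the test against LPS (1.22, adjusted p = 0.617, and -0.59, adjusted p = 0.851), and their single differences were -8.93 and -7.62 for LPS beside -7.71 and -8.21 for PolyI:C. St6gal1, a sialyltransferase, differed from both on the positive side. Its means were 971 and 20.0 in wild type and 989 and 369 in CB2-/- without and with PolyI:C, with 4.4 ± 0.48 (SE; adjusted p = 1.12e-06) against LPS and 4.91 ± 0.48 (SE; adjusted p = 5.79e-08) against CpG. Hpgd also differed from both (4.11 and 3.87), whereas Cnr2 did not pass the test against either (1.59, adjusted p = 0.24, and -1.23, adjusted p = 0.321).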

How the data were processed

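RNA of cultured neonatal mouse microglia was sequenced as 75 bp single-end reads, and the labels' protocols describe a TruSeq and a SMART-Seq2 library protocol and do not assign libraries to them. The submitters' processing notes name CASAVA 1.8, kallisto and DESeq2, without their roles. No genome build is given in the sources used here. What the authors deposited are normalised counts per gene, which are a signal that is never negative; how they were scaled is not stated. The authors' batch-corrected table, declared here as a score because its header is numeric, holds log2-like values and served as an alternative only. Values were taken as log2(value + 1), and a gene needed a value of 10 or more in 3 or more libraries. The model was limma's (version 3.58.1, R 4.3.3; lmFit on 9 group means over all 27 libraries, 18 residual degrees of freedom, eBayes with trend, two-sided, Benjamini-Hochberg adjusted p under 0.05). Groups came from the titles. The fit was tested on simulated data. Replicate pairs differed beyond counting noise (chi-square per degree of freedom 5.87 to 646 over 12 pairs), so none were merged. Named genes were the 12 most positive and 12 most negative called differences with a mean of at least 100 and responses that do not overlap, a panel of 17 genes, up to 3 called genes in each direction per list, and 4 in each direction against LPS and CpG. The genes, the 39 lists and the comparisons were chosen with earlier results of these data known. Some named genes are not reported here. Positions are from GENCODE M21 (GRCm38), which 23933 gene identifiers matched. Alternatives varied pseudocount, filter, scaling, libraries in the fit, baseline, library weights, the fold threshold, the variance model and the input table. Leaving out both libraries that stood apart was chosen after seeing the data. Figures were drawn with matplotlib 3.10.9 in Python 3.11.15.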

Additional observations from a re-analysis of the deposited data

Results flagged for a closer look

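The genes below had responses to PolyI:C that differed between the genotypes by a test of the difference itself, given as log2 differences (CB2-/- minus wild type). The 12 most negative were Il19 -9.63, Rbpsuh-rs3 -8.92, Mmp13 -8.88, Pdpn -8.63, Il10 -8.43, Il6 -8.29, Ccl7 -8.21, Draxin -7.88, Nos2 -7.71, Slfn4 -7.68, U90926 -7.63 and Lcn2 -7.49. The 12 most positive were Slco2b1 6.45, Htra3 6.16, Capn3 5.94, Mlxipl 5.55, Tmem37 5.52, Hpgd 5.47, Cxcr4 5.36, Amz1 5.12, Slc46a3 5.08, Gpr34 5.08, Ptgfrn 5.05 and Tbc1d4 4.98. Among the panel genes outside these, the differences were Tlr3 -1.60, Ticam1 -0.60, Ddx58 -2.04, Ifih1 -2.22, Irf7 -2.72, Tnf -4.72, Cxcl10 -6.18 and Ccl5 -2.12, with Cnr2 at 4.13. In each of these genes genotype and number series cannot be told apart. The call of Ticam1 was lost in 6 of 12 fits with 1 library left out. Nos2 and Rbpsuh-rs3 were not called with both unstimulated wild-type sets as 1 baseline. No group had more than 3 libraries, so single libraries were not tested as outliers.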

How the results depend on the processing

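Counts are given as higher and lower; changes by more than 1.5 times are listed, and the cause was not tested unless the alternative is itself a stricter threshold. A fold of at least 2 gave 252 and 428 for the difference, 1023 and 760 for wild type, 16 and 2 for CB2-/-, 31 and 30 against LPS, and 81 and 336 against CpG. Library weights gave 2564 genes higher in the difference, 1192 and 848 in CB2-/-, and 1328 and 1357 against LPS. The batch-corrected table gave 1339 and 911 in CB2-/-, 1111 and 1212 against LPS, and 1428 genes higher against CpG. For genes that fell in CB2-/- quantile scaling gave 784 and a single unstimulated wild-type baseline 333. With 1 library left out the counts were 1352 to 1582 and 1836 to 2127 for the difference, 2784 to 3033 and 2583 to 2680 in wild type, 532 to 607 and 273 to 434 in CB2-/-, 510 to 664 and 509 to 702 against LPS, and 699 to 1043 and 1375 to 1802 against CpG; the 504 genes that fell in CB2-/- became 273, 282 and 313 without unstimulated CB2-/- replicates 1, 2 and 3, and 293 without CB2-/- PolyI:C replicate 1. The other settings kept these counts within 1.5 times. Of 159 named genes with a called difference, 146 were called with any 1 library left out and 92 under every other setting listed in the methods. Signs turned for Irf3 (-0.012 with 1 baseline), Ctsl (0.19 after quantile scaling) and Ifnb1 (0.30 with library weights, and -1.22 to 0.81 with 1 library left out); none of these reversed values passed the test. Count models were not run, since whole reads could not be recovered from the values: 49.7 to 67.7% of low values in the 12 libraries were whole multiples of the recurring step. No paired analysis was possible because the labels give library numbers and no replicate number shared between groups. Depth of about 3.56 M reads in the shallowest library limits genes near 0, such as Ifnb1.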

Other observations

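A small set of genes was called in CB2-/- and was not called, or was called the other way, in wild type. In 20 genes PolyI:C gave a rise in CB2-/- and a fall in wild type, and in 46 a rise in CB2-/- with no call in wild type, with the difference called higher. Examples, chosen after their values were seen, with a mean of at least 100 in the highest group, were Tlr2, the receptor for bacterial lipoproteins, which read 3448, 3478 and 3534 normalised counts in unstimulated wild type and 1007, 1499 and 1420.4 after PolyI:C. In CB2-/- cells Tlr2 read 3126, 2999 and 2987 unstimulated and 5252, 4917 and 5139 after PolyI:C, and the difference was 2.18 ± 0.26 (SE; adjusted p = 7.93e-07). Pygl, which breaks down glycogen, read 666, 911 and 768 normalised counts in unstimulated wild type and 206, 308 and 355 after PolyI:C. In CB2-/- cells Pygl read 442, 668 and 747 unstimulated and 1151, 1194 and 937 after PolyI:C, and the difference was 2.30 ± 0.36 (SE; adjusted p = 2.69e-05). Both genes fell in all wild-type and rose in all CB2-/- PolyI:C libraries. The rise in CB2-/- was 0.75 for Tlr2 (adjusted p = 0.0108) and 0.85 for Pygl (adjusted p = 0.0355). Itga4, an integrin subunit that guides leukocytes, and Atm, the DNA damage kinase, rose in CB2-/- alone: Itga4 (-0.43 in wild type, 1.47 in CB2-/-, difference 1.90, adjusted p = 8.17e-05) and Atm (-0.35 in wild type, 1.47 in CB2-/-, difference 1.82, adjusted p = 0.00199). The Itga4 mean was lower in CB2-/- than in wild type both unstimulated (74.7 against 721) and under PolyI:C (214 against 533). The Atm means were 126 against 120 unstimulated and 353 against 94.1 under PolyI:C. The reverse, a fall in CB2-/- and a rise in wild type, was seen for 37 genes, and a fall in CB2-/- with no call in wild type for 60, with the difference called lower. None of these class counts was taken under the other settings. For the examples below the fall in CB2-/- was -0.66 for Cd36 (adjusted p = 0.0384), -0.49 for Plin2 (adjusted p = 0.0136) and -0.54 for St3gal5 (adjusted p = 0.000722). Cd36, a fatty acid and lipoprotein receptor, read 2449, 1311 and 1910.4 normalised counts in unstimulated wild type and 4507, 7526 and 7108 after PolyI:C. In CB2-/- cells Cd36 read 7786, 6661 and 6742 unstimulated and 4378, 4462 and 4534 after PolyI:C, and the difference was -2.43 ± 0.28 (SE; adjusted p = 4.89e-07); Plin2, which coats lipid droplets, differed by -1.52 ± 0.17 (SE; adjusted p = 4.62e-07) and St3gal5, the enzyme that makes the ganglioside GM3, by -2.04 ± 0.14 (SE; adjusted p = 1.18e-10).

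In 195 genes the response was a rise in both genotypes and the difference was not called. They included P2ry14, a receptor for UDP-sugars (3.30 in wild type and 2.53 in CB2-/-), Slamf8, a surface receptor of macrophages (3.81 and 2.12), and Vnn3 (2.44 and 2.15). A missed call does not show that the responses were equal: Slamf8 had a difference of -1.69 ± 0.74 (SE; adjusted p = 0.1) and P2ry14 of -0.77 ± 1.02 (SE; adjusted p = 0.645). These genes too were chosen after their values were seen.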
